A study of Caenorhabditis elegans with 2 samples.

Results

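Strong TTX-3 ChIP-seq regions at one-direction promoters are regions whose summit, the position of highest signal, lay in the promoter window of protein-coding genes on a single strand. There were 836 of them among the 3000 regions of highest signal and among 30000 in the whole list of the pooled replicates. They were chosen by the authors' pooled signal and by annotation: the region had to be nuclear, with its summit more than 100 bp from any tRNA, snoRNA or snRNA gene, and from 1000 bp upstream to 300 bp downstream of a gene's annotated 5' end. The remaining strong regions were 387 at both-strand promoters, where genes on both strands had the summit in their windows, 904 inside genes away from promoters, 542 distal intergenic ones, 319 at small RNA genes and 12 mitochondrial ones. A further 5741 one-direction regions ranked below the strongest 3000 and are called weaker one-direction regions. None of them was among the 700 regions that passed the authors' reproducibility filter, a list that followed pooled rank. Their deposited −log10 q-values were 0.0867 to 0.259, so this comparison group may hold much background.

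Late-embryonic hermaphrodites of Caenorhabditis elegans strain OP68, collected 4 hours after synchronization by bleaching of eggs, formed a single group of 2 biological replicates. The strain carries unc-119(ed3) on chromosome III and the transgene wgIs68, which expresses TTX-3 with a C-terminal GFP-FLAG tag, and every sample carries both. Sonicated chromatin of whole animals was precipitated with an antibody against GFP, so the fused protein was recovered from all cells that held it, and fewer cells with a bound site cannot be told apart from less binding per cell. The labels describe a single stable line, and a strain without the fusion protein was not analysed here.

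The protein TTX-3, of the LIM homeodomain class, is known as the terminal selector of the AIY interneuron, where it acts with the homeodomain protein CEH-10. Homeodomains recognise short AT-rich sequences with a TAAT core, whereas promoters of broadly expressed worm genes are known to be bound in ChIP-seq by many unrelated factors. Many worm messages are trans-spliced, so an annotated 5' end can lie downstream of the place where transcription starts.

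The sequences at the summits of the 8 strongest members are shown because they carry the base composition on which the comparison with weaker regions turned. Each runs 50 bp to either side of the summit, 5' to 3' on the strand of the gene, from the RefSeq sequence of WBcel235 (ce11). Capitals mark every match, on either strand, to the 6-mer ACGCGC or to CGCGCA or GCGCAA or GCGCAC or GCGCGC, which overlap one another in the letters GCGC.
K12H4.5, chrIII:8043913-8044013, plus strand: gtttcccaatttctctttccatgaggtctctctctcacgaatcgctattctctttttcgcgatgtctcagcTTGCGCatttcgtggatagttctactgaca
M01F1.9, chrIII:3499964-3500064, minus strand: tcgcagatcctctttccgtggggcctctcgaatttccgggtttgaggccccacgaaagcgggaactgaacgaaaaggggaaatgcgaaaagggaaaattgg
T13C5.6, chrX:6207797-6207897, minus strand: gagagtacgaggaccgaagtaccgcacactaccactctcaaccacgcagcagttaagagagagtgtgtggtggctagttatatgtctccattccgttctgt
rpl-3, chrIII:3867539-3867639, plus strand: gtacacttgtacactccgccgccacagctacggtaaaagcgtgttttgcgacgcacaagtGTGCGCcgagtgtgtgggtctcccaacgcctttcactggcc
ftt-2, chrX:11605915-11606015, minus strand: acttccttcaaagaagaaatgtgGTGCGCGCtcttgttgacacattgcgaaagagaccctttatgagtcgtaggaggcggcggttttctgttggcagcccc
F39G3.3, chrV:4731527-4731627, plus strand: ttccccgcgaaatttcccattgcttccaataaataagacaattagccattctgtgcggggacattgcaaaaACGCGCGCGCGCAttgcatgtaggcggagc
swsn-3, chrIII:2768813-2768913, minus strand: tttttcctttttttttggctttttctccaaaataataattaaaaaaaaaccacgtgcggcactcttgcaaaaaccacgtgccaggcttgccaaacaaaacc
C46F11.4, chrIII:3664389-3664489, minus strand: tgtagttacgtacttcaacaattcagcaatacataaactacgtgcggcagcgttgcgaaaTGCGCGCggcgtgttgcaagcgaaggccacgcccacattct

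At least 1 such 6-mer is held by 5 of these windows, those at K12H4.5, rpl-3, ftt-2, F39G3.3 and C46F11.4. The 8 windows have between 36.6% and 58.4% G and C, lowest at swsn-3 and highest at rpl-3. The swsn-3 window has no match to the 5 6-mers. It holds CACGTG at 2 places and TAATTA, a palindrome with the homeodomain core TAAT, at 1.

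Other 6-mers are shown in 1 further member each, to place TAATTA and other 6-mers named below beside the strongest windows. Capitals mark TAATTA at Y73B6BL.29, CACGTG, the E-box palindrome, at tos-1 and AATACA at Y50D4C.5.
Y73B6BL.29, chrIV:6321878-6321978, plus strand: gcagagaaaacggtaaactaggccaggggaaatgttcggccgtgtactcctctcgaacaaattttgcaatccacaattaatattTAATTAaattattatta
tos-1, chrV:9344250-9344350, minus strand: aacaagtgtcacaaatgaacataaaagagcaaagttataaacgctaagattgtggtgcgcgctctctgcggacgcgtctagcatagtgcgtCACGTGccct
Y50D4C.5, chrV:1003944-1004044, minus strand: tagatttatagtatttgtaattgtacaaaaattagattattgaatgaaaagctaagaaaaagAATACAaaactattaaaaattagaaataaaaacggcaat

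Signal at the members lay between 43.4 and 776, with a median of 54.2. Signal is the strength the authors' peak caller gave each region, in units with no stated scale between lists. The lists carry no read counts, so the depth is unknown. These values chose the members and are a description. Of the members, 181 (21.7%) were also in the optimal list, the 700 regions that passed the authors' reproducibility filter, against 39.8% of both-strand regions, 8.30% of strong regions inside genes and 9.78% of distal ones. Over all nuclear regions of the pooled list the share was 2.30%. All 181 belonged to the strongest 209 members. At the genes of the lists named below, membership followed pooled rank. The vps-39 region at rank 700 was in the optimal list and the taf-10 region at rank 701 was not. These shares therefore restate the pooled signal and are no separate measure of reproducibility. The deposited −log10 q-value had a median of 0.588 at the members, with an upper quartile of 1.24, and ranged from 0.260 to 1.51. Members were called strong by their rank in the pooled list and not by a q-value limit. They may therefore hold background too, and not every member can be taken as a confident binding region.

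The choice of 3000 regions set a limit inside a continuous range of signal. The members just inside it were at nol-9 (43.43), C36B7.6 (43.43), ing-3 (43.42), F46H6.5 (43.38) and tctn-1 (43.38). The one-direction regions just outside were at umps-1 (43.35), dyf-19 (43.34), npp-24 (43.34), C31H5.4 (43.33) and F13E9.11 (43.33). No gap separated the groups.

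The strongest member lay 524 bp upstream of K12H4.5, at chrIII:8043766-8044192, between K12H4.5 and the divergent gene K12H4.6. Its pooled signal was 776, and the replicates gave 393 and 388. The next was the region upstream of M01F1.9, with 426 in the pooled list, and 227 and 204 in the replicates. Its summit lay in an intron of another gene. At T13C5.6 the pooled signal was 308, and the replicates gave 161 and 148. For these 3 regions the replicates were close to each other.

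The 30 strongest members lay at genes of mixed roles, many of them with no role given here. All 30 regions were in the optimal list and had a summit in both replicates, with pooled signals of 148 or more and summits from 97 to 978 bp upstream of the gene. Translation was represented by rpl-3, a large-subunit ribosomal protein gene (295), rpl-35 of the same subunit (177), rps-28 of the small subunit, whose region also served Y41D4B.4 (210), and eif-3.C, a subunit of initiation factor 3 (220). The gene ftt-2, which encodes a 14-3-3 protein, had 2 members, with signals of 290 and 172, at 546 and 750 bp upstream. RNA-related genes were plrg-1, a spliceosome component (199), and tos-1, a gene known for its regulated splicing (158).

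Genes of the nucleus and of organelles made up more of these 30. They were swsn-3, a subunit of the SWI/SNF chromatin remodeller (251), npp-8, a nuclear pore protein (187), ddp-1, a mitochondrial import chaperone, which shared its region with ttc-7 (172), and usp-4, a ubiquitin-specific protease (152). Metabolic and secretory genes were dhs-8, a short-chain dehydrogenase (183), mans-3, a mannosidase (156), ccdc-47 (190), and clec-53, a C-type lectin domain gene (202). The clec-53 region lay inside another gene, and so did that of swsn-3. A gene of a nematode-specific peptide family, nspc-17, had 160. The others were F39G3.3 (259), C46F11.4 (225), Y50D4C.5 (211), R148.3 (209), K05C4.7 (208), W01D2.3 (200), W03H9.2 (192), F08G2.5 (154) and C34C12.9 (148).

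Among the 30, 10 lay on chromosome III and 5 on X. An annotated ncRNA gene lay within 100 bp of the summit at 6 of them, T13C5.6, W01D2.3, dhs-8, F08G2.5 and both ftt-2 regions. Over all members this was so at 64 (7.66%), against 7.24% of both-strand regions and 2.96% of weaker one-direction ones. Only the rps-28 region differed more than 2-fold between the replicates, with 148 in replicate 1 and 68.8 in replicate 2.

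How far the replicates shared these regions was asked next. A summit of both replicate lists lay within 100 bp of 656 members (78.5%, exact 95% interval 75.5 to 81.2), against 81.4% of both-strand regions, 72.1% of strong regions inside genes, 69.6% of distal ones and 17.2% of weaker one-direction ones. Over all nuclear regions the share was 22.4%. A summit of replicate 1 alone was found for 81 members, of replicate 2 alone for 88, and of neither for 11, among them act-2 and nxt-1. The pooled list was made from the same reads, so this count describes the list and tests nothing.

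Presence in both replicates followed the pooled signal down the list. In 4 groups of 209 members each, ordered from the strongest down, the share was 92.3%, 82.8%, 72.2% and 66.5%. Members without a summit of replicate 1 included him-17 (pooled 128, replicate 2 59.8) and dnc-3 (98.8 and 52.3). The second region of rps-24 (124) had 74.1 in replicate 1 and no summit of replicate 2. Each of these was in the optimal list, which followed pooled rank. In all, 12 members lacking a replicate were in it, 9 of them without replicate 1 and 3 without replicate 2.

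Signal ran from 11.4 to 393 over the 737 members with a replicate 1 summit (median 30) and from 12.3 to 388 over the 744 with a replicate 2 summit (median 28.5). At the 656 shared members, the median log2 ratio of replicate 1 to replicate 2 was 0.10, with an interquartile range of −0.32 to 0.50. The ratio passed 2-fold at 49 members in favour of replicate 1 and at 48 in favour of replicate 2. It was most uneven at app-1, with 85.8 and 22.4, and at jph-1, with 12.1 and 37.9. Spearman's rho was 0.348 across the 656 members, 0.470 across those among the strongest 250 and 0.598 among the strongest 50. Pearson's r of log2 signal was 0.542. These are across regions of the same pair of libraries and are descriptions. The order of members was shared more closely at the strong end of the list than over all of it.

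**Figure D1:**
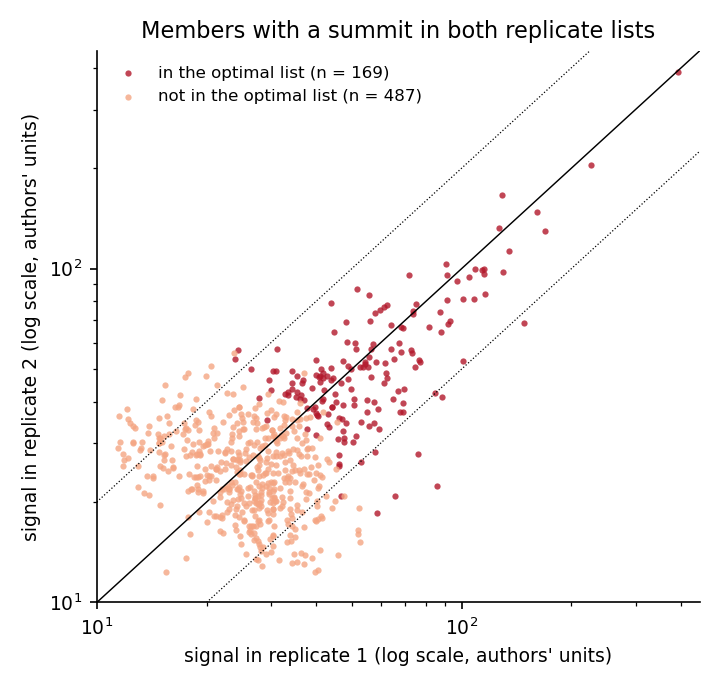
Signal in replicate 1 (x axis) against replicate 2 (y axis), both on log scales in the authors' units, for the 656 members with a summit in both lists; the solid line marks equal values and the dotted lines a 2-fold ratio. The members in the optimal list run up to the K12H4.5 region at 393 and 388, and the others form a broad cloud with little order.

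Summits concentrated shortly upstream of genes. Of the members, 731 (87.4%) had their summit upstream of the nearest 5' end, and 374 (44.7%, exact 95% interval 41.3 to 48.2) lay 1 to 300 bp upstream. The fullest 100-bp interval was from 200 to 100 bp upstream, with 155 members. The window belongs to the rule, so these positions are descriptions. The corresponding share within 300 bp upstream was 74.2% at both-strand regions, where the gap between the genes bounds the distance, and 25.9% at weaker one-direction regions, whose summits were spread almost evenly, with 386 to 505 per 100-bp interval upstream of the 5' end.

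Position changed along the ranking of the members too. The share 1 to 300 bp upstream was 59.3%, 52.2%, 37.8% and 29.7% in the same 4 groups, strongest first. Only 105 members had their summit at or downstream of the 5' end, and 4 of these (3.81%) were in the optimal list, at ZK484.6 (replicates 61.3 and 45.4), F22G12.4 (pooled 92.9), C53B4.3 (78.7) and F35A5.8 (76.1). By comparison 29.7% of members 1 to 300 bp upstream and 18.5% of those farther upstream were in that list. Membership in it followed pooled rank, so these shares describe signal by position.

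**Figure D2:**
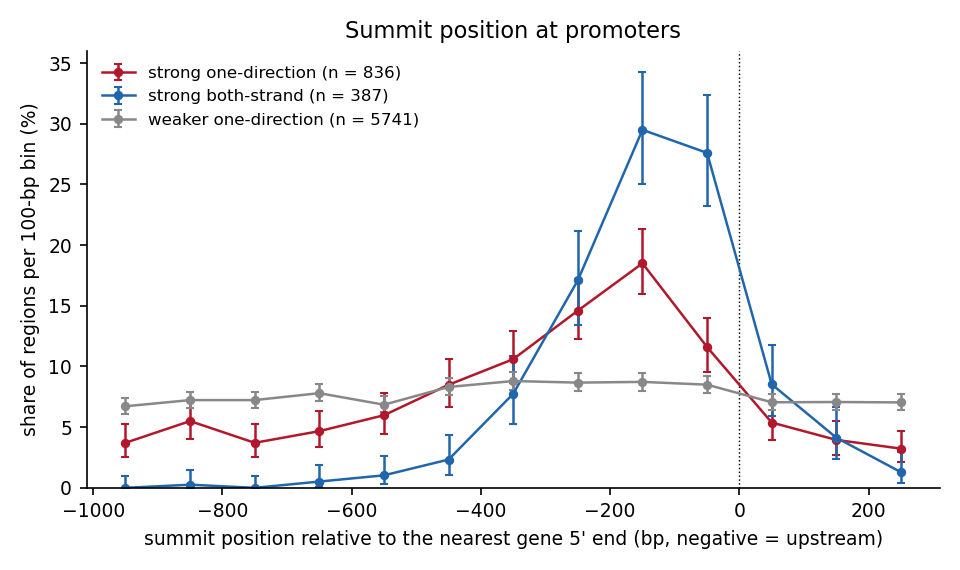
Share of regions per 100-bp bin (y axis, %) by summit position relative to the nearest annotated gene 5' end (x axis, bp); bars are exact 95% intervals that cover counting error over regions. Members peak at 18.5% between 200 and 100 bp upstream, below the both-strand regions and above the nearly flat weaker one-direction regions.

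By annotation, 637 member summits (76.2%) were intergenic, against 60.3% of weaker one-direction summits. Introns held 10.9% of members and 18.1% of weaker regions, coding exons 4.78% and 12.6%, 5' UTRs 4.43% and 3.61%, and 3' UTRs 3.59% and 5.33%. In 95 members the summit lay inside a gene other than the one whose promoter it occupied. Upstream of the nearest gene, the neighbouring gene pointed the same way in 520 members (62.2%, weaker regions 62.8%) and away from it in 266 (31.8%, weaker 30.3%). In those 266 the median gap between the 2 genes was 3569 bp. By the rule, none of these divergent partners had the summit in its own promoter window. In 49 members the 5' end itself lay inside another gene.

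Members covered 818 protein-coding genes, 4.09% of 19985. One gene was in the window of 810 members and 2 genes on the same strand in that of 26. There were 43 genes with more than 1 member. The closest pair of summits at such a gene was a median of 207 bp apart and no closer than 199 bp. Of the 43, 34 were within 250 bp. Most member regions were 450 bp wide, so many pairs may overlap and share reads. Examples were W01D2.3, with 200 and 125 at 205 and 405 bp upstream, lem-2, an inner nuclear membrane protein gene, with 132 and 76.3 at 298 and 91 bp, and W03H9.2, with 192 and 66.2. The high-mobility-group gene hmg-1.1 had 3 members, with signals of 71.9, 55.6 and 52.2.

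The shares of 26 gene lists were read against the 4.09% of all protein-coding genes, without a test, because the members and lists were chosen with results of these data known. Lists of broadly used cellular machinery had larger shares at members than the background. Of 81 cytosolic ribosomal protein genes 11 (13.6%) had a member, against 30.9% with a both-strand region. The 4 strongest were rpl-3 (pooled 295, replicates 129 and 166), rps-28 (210, 148 and 68.8), rpl-35 (177, 91.4 and 80.4) and rps-24 (133, 61.2 and 76.6). In the rps-24 window 34.8% of the 36-base stretches occur more than once in the genome, so its reads may be shared with another copy. The mitochondrial ribosomal list had 6 of 70 (8.57%), with mrpl-15 strongest at 81.7, before mrpl-19 (66.8), mrps-23 (65.5) and mrpl-28 (50.6).

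Translation factors had 6 of 41 (14.6%): after eif-3.C (220) came eif-3.B (86.7) and eif-3.J (80.7), also subunits of initiation factor 3, and eef-1A.2, an elongation factor (69.8). The last was uneven, with 17.5 in replicate 1 and 47.4 in replicate 2. Aminoacyl-tRNA synthetases had 3 of 32 (9.38%), at fars-3 (69.4), vars-1 (62.5) and yars-2 (52.0), of which vars-1 and yars-2 had no replicate 2 summit.

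Genes of splicing and mRNA processing had 8 of 60 (13.3%). The strongest were cpf-2 (107, replicates 51.2 and 59.7) and cpsf-1 (103, 67.7 and 37.3), both of the 3' end cleavage machinery, and the SR-protein genes rsp-8 (90.0) and rsp-6 (62.7). The Mediator and RNA polymerase II list had 7 of 61 (11.5%): rpb-11, a polymerase subunit (109), taf-10 (72.5), ttb-1, which encodes TFIIB (65.6), and mdt-22 (58.7) led it. Of these only rpb-11 had both replicates, with 69.0 and 37.2.

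Chromatin and histone genes had 19 of 161 (11.8%). After swsn-3 (251, 135 and 113) came set-25, a histone H3 lysine 9 methyltransferase gene (111, 49.7 and 50.2), set-20 (94.1) and his-37, a histone H4 gene (94.0, 55.2 and 40.5). In the set-25 window 47.0% of 36-base stretches are repeated in the genome. Cell cycle and DNA replication genes had 9 of 71 (12.7%), led by cdc-48.1, an AAA ATPase (138, 59.6 and 75.3), mcm-10, a replication factor (121, 56.2 and 69.7), knl-3, a kinetochore protein (88.3), and pcn-1, the replication clamp PCNA (81.9).

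Mitochondrial respiration had 7 of 49 (14.3%). The leading genes were nuo-2 (133, 72.6 and 57.1) and nduf-11 (101, 59.0 and 37.9) of complex I, and cox-5A (110, 62.5 and 46.9) and cox-5B (79.7, 50.5 and 30.2) of complex IV. Replicate 1 was the higher in all 4. Vesicle traffic had 13 of 109 (11.9%), led by vps-22 (92.1), vps-39 (72.5), vps-60 (70.3) and vps-37 (69.5). All of the 36-base stretches at vps-39 are repeated, so that value is uncertain. The vacuolar ATPase had 2 of 20, at vha-12 (45) and vha-16 (44.7).

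In protein turnover, ubiquitin conjugation genes had 6 of 57 (10.5%), led by ubl-5 (83.0), the SUMO-conjugating enzyme ubc-9 (78.4), ubc-7 (68.9) and the polyubiquitin gene ubq-1 (65.4). Proteasome genes had 3 of 33 (9.09%), at pbs-4 (71.0), pbs-3 (57.3) and rpn-13 (54.9). Chaperones had 4 of 65 (6.15%), against 24.6% at both-strand regions. They were hsp-1, an HSP70 gene (106), dnj-9 (87.3), the prefoldin subunit pfd-5 (66.9) and dnj-5 (59.0). The actin and tubulin list had 5 of 67 (7.46%), with dnc-3 of dynactin (98.8), the alpha-tubulin tba-2 (52.4), arx-7 of the Arp2/3 complex (51.1) and the kinesin klp-17 (45.1) ahead of act-2.

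Lists of regulators and of tissue-restricted genes were near or under the background in most cases. Homeobox genes had 4 of 92 (4.35%): ceh-39 (62.0), ceh-58 (58.9), ceh-20 (52.2) and ceh-91 (44.9). Nuclear hormone receptors had 9 of 269 (3.35%), with nhr-48 (105, replicates 76.1 and 27.8), nhr-64 (55.6), nhr-56 (54.8) and nhr-95 (54.1) strongest. Neuropeptide and insulin-like genes had 5 of 140 (3.57%), led by ins-39 (74.3), nlp-50 (45.1), ins-1 (44.5) and nlp-69 (44.2). Chemoreceptor genes, one of the largest families of the worm, had 5 of 1310 (0.382%), with srg-47 (56.8), srbc-58 (47.9), srh-173 (47.1) and sri-18 (44.7) ahead. The collagen list had 1 of 169 (0.592%), and that gene, bli-4 (45.7), matches the list's naming pattern but encodes a protease.

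For the cell types, none of 12 AIY genes had a member, and 6 of the 12 had a weaker one-direction region, against 24.7% of all genes. Over the 26 lists the share with a weaker region ran from 11.2% (collagens) to 53.6% (panneuronal and synaptic). It was 47.5% for Mediator and RNA polymerase II, 40.7% for muscle and 16.7% for pharynx, so a high share was not particular to AIY. The AIY list includes ttx-3 itself and ceh-10. Epidermal and pharyngeal lists had 0 of 16 and 0 of 12, and the intestinal list 1 of 20 (5.00%), gob-1 (84.6). Muscle genes had 4 of 27 (14.8%): unc-97, a LIM protein of muscle attachments (72.4, 31.6 and 40.1), unc-60, which encodes cofilin (62.2), lev-11, tropomyosin (58.7), and pat-4, integrin-linked kinase (46.9). Neither unc-60 nor pat-4 had a replicate 1 summit. The panneuronal and synaptic list had 3 of 28 (10.7%), at syd-2, a liprin-alpha of presynaptic assembly (73.9, 53.0 and 26.4), rgef-1 (66.9) and unc-76 (45.9). Each of these lists is short, and 1 gene moves its share by several percent.

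**Figure D3:**
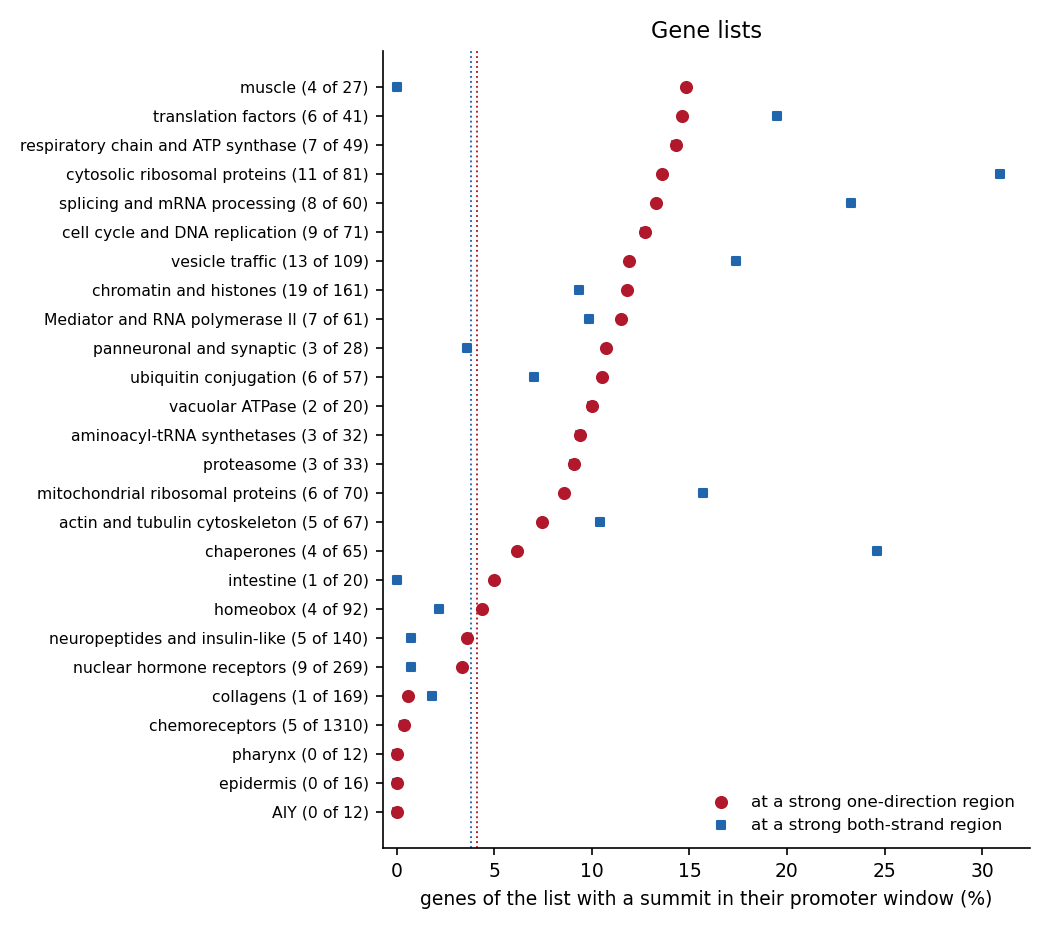
Share of each list's genes (x axis, %) with the summit of a strong one-direction region (red circles, counts in the labels) or of a strong both-strand region (blue squares) in the promoter window; dotted lines give the shares of all protein-coding genes, 4.09% and 3.8%. Lists of cellular machinery stand right of the lines, while the AIY, epidermal and pharyngeal lists are at 0 in both.

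Base composition was not used by the rule. In windows from 50 bp before to 50 bp after the summit, the median GC content was 41.6% at members, 41.6% at both-strand regions and 32.7% at weaker one-direction regions. Along the members it was 46.5%, 41.6%, 37.6% and 35.6% in the 4 groups of 209, strongest first. Members on X had the highest median of any chromosome, 47.5%, and those on I the lowest, 37.6%. The dinucleotide CG occurred a median of 5 times per member window, 6 times per both-strand window and 3 times per weaker window, and was missing from 2.51% of member, 0.775% of both-strand and 8.78% of weaker windows.

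To ask which short sequences set members apart from weaker one-direction regions, all 6-mers, reverse complements merged, were compared by the presence of each in the window (two-sided Fisher's exact test, with p adjusted by Benjamini and Hochberg's method across the whole set of 6-mers). Regions are not replicates, so these p-values cover counting error over regions and not the spread between embryos. In all, 382 6-mers (18.4%) were more frequent in members and 187 (8.99%) less frequent. Of the 382, 276 had at least 4 G or C and 247 contained CG. Of the 187, 170 had at most 2 G or C and none contained CG. These counts moved with base composition: within bins of windows with like numbers of G and C (Cochran-Mantel-Haenszel test, an alternative chosen after seeing the data), 87 stayed more and 33 less frequent, 83 and 23 of them shared with the plain test.

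The 6-mers of lowest p shared the letters GCGC. The first of them, ACGCGC, was in 97 of 836 member windows (11.6%) and 124 of 5741 weaker windows (2.16%), an odds ratio of 5.95 (Fisher's exact test, adjusted p = 1.77e-28). Within GC bins (n = 836 and 5724 regions) its odds ratio was 3.46 (adjusted p = 2.15e-14). CGCGCA was in 12.1% and 2.42% (odds ratio 5.54, 3.15 within GC bins), GCGCAA in 10.9% and 2.80% (4.23 and 3.19), GCGCAC in 9.09% and 2.07% (4.72 and 2.71) and GCGCGC in 7.30% and 1.38% (5.64 and 2.64). All 5 were past the adjusted threshold of 0.05 in both tests. In windows of the same length centred 150 bp upstream of all 19973 nuclear gene 5' ends, these 6-mers occurred in 1.43% to 2.75%, ACGCGC in 2.54%.

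At least 1 of the 5 was present in 224 member windows (26.8%), 143 both-strand windows (37.0%), 404 weaker windows (7.04%) and 7.37% of all promoter windows. In the 4 groups of 209 members, strongest first, the share was 47.4%, 23%, 22% and 14.8%. It was 33.7% for members 1 to 300 bp upstream and 21.2% for the others. Because the 5 overlap and were picked by their p, these shares are descriptions. A match here says that the letters occur in the window and not that a protein binds them.

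**Figure D4:**
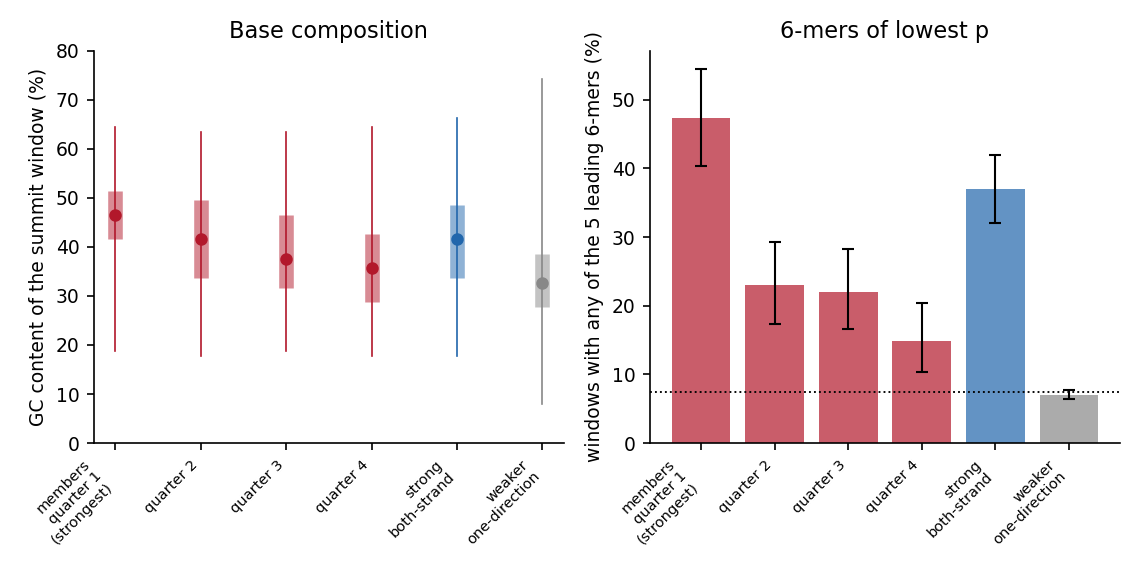
Left, GC content of the summit windows (y axis, %) with the median as a point, the interquartile range as a thick bar and the range as a thin line; right, the share of windows (y axis, %) with at least 1 of the 5 6-mers of lowest p, with exact 95% intervals and the share in all promoter windows as a dotted line. The 4 groups of members run from the strongest to the weakest, from 46.5% to 35.6% GC and from 47.4% to 14.8% of windows.

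The homeodomain core TAATTA was in 51 member windows (6.10%) and 7.26% of weaker windows, with an odds ratio of 0.829 that did not pass the test (Fisher's exact test, adjusted p = 0.421) and was 1.31 within GC bins (adjusted p = 0.332). It was in 5.80% of all promoter windows. CACGTG was in 2.03% of members and 1.34% of weaker windows (odds ratio 1.53, Fisher's exact test, adjusted p = 0.254). AT-rich 6-mers were less frequent in members: AAAAAT was in 45.2% and 61.5% (odds ratio 0.516, Fisher's exact test, adjusted p = 2.05e-16), AAAATT in 38% and 53.4%, AAAAAA in 41.9% and 55.1% and TCAAAA in 18.9% and 30.3%. Within GC bins the first 3 had odds ratios of 1.03, 1.00 and 1.08 and TCAAAA 0.834, none past the threshold. AAAGTT, in 9.33% and 18.4%, kept its direction there (n = 836 and 5724 regions, odds ratio 0.641, adjusted p = 0.0136).

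The remaining 6 of the fixed panel of 10 6-mers were, like most called 6-mers, called without GC bins and not within them. GAGAGA was in 84 members and in 6.38% of weaker windows (odds ratio 1.64, 0.976 within GC bins), CCCGCC, a GC box, in 5.86% and 2.65% (2.29 and 1.12), and TGACGT, the core of sites of bZIP factors, in 4.31% and 2.33% (1.88 and 1.46). TTATCA, which holds the GATA core of the intestinal regulators on its other strand, was in 5.74% and 8.52% (0.654 and 0.893), TTTCAG, the 3' splice site consensus, in 13.5% and 20.2% (0.619 and 0.846), and TATAAA in 10.2% and 15.1% (0.636 and 1.05).

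Against both-strand regions, which matched the members in GC content, no 6-mer passed the adjusted threshold in either direction (0 more and 0 less frequent, 0% of 6-mers each; Fisher's exact test, 164 with an unadjusted p under 0.05), and none did within GC bins. Those closest to it in favour of members were AATACA, in 8.85% of member and 2.84% of both-strand windows (odds ratio 3.32, Fisher's exact test, adjusted p = 0.0913), CTACGA, in 3.59% and 0.258% (odds ratio 14.4), ATTCAC, in 6.58% and 2.07%, GCTACA, in 19 member windows and 0 of 387, and ATTGTA, in 6.46% and 2.33%. In the other direction were GCGCAC, in 9.09% and 17.1% (odds ratio 0.486, Fisher's exact test, adjusted p = 0.0913), CTTGCA, in 6.58% and 13.2%, GCGCCA, in 5.62% and 11.9%, GCCGCA, in 6.10% and 12.4%, and GTGCCA, in 2.39% and 6.98%. In all promoter windows AATACA was at 9.39%, ATTCAC at 5.95%, GCTACA at 2.17% and ATTGTA at 7.19%, near their member shares. CTACGA was at 1.95% there, and the 5 of the other direction were at 1.65% to 3.77%. Longer windows and transcript 5' ends gave small counts, 7 and 9 6-mers. A p that misses the threshold does not show that the groups hold the same sequences.

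Members were spread over the chromosomes, with 168 on I, 151 on II, 135 each on III and IV, 122 on V and 125 on X. As a share of all protein-coding genes, those with a member were 5.73% on I, 4.15% on II, 5.08% on III, 4.15% on IV, 2.38% on V and 4.43% on X. On X lay 15% of members and 3.88% of both-strand regions, an odds ratio of 4.36 (two-sided Fisher's exact test, adjusted over 12 comparisons p = 2.17e-08). Against weaker one-direction regions, of which 14.3% were on X, the odds ratio was 1.06 (Fisher's exact test, adjusted p = 0.717). Gene arrangement differs in the same way: 81 of 1772 annotated head-to-head gene pairs with their 5' ends within 1000 bp, each counted once by its minus-strand gene, were on X (4.57%), while X holds 13.7% of protein-coding genes, and 4.53% of weaker both-strand regions were on X. The part of gene arrangement in the difference was not tested.

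On the autosomes, chromosome III held 16.1% of members and 22.7% of both-strand regions (odds ratio 0.654, Fisher's exact test, adjusted p = 0.0268), and V held 14.6% of members and 18.8% of weaker one-direction regions (odds ratio 0.738, adjusted p = 0.0177). The other chromosomes did not pass in either comparison. The strongest members on X were those at T13C5.6 (308), ftt-2 (290 and 172), nspc-17 (160) and mans-3 (156).

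**Figure D5:**
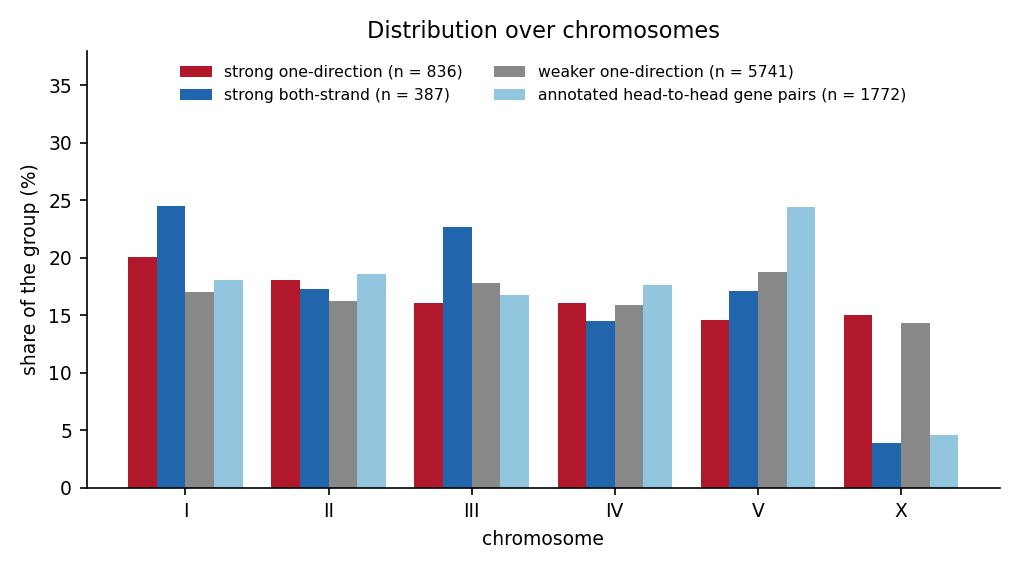
Share of each group (y axis, %) on each chromosome (x axis) for strong one-direction regions, strong both-strand regions, weaker one-direction regions and annotated head-to-head gene pairs with 5' ends within 1000 bp. X holds 15% of members and 14.3% of weaker one-direction regions, but 3.88% of both-strand regions and 4.57% of head-to-head pairs.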

How the data were processed

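Lists of regions on ce11 were used for 2 biological replicates, their pool and the optimal set. Those of the replicates and the pool are labelled as peaks and background, the input to the reproducibility filter. Lists on ce10 were not used here. Per the file headers and labels, the authors deposited a signal value and a −log10 q-value per region; the signal ranks regions within a list. Not given in the sources used here are the aligner, the peak caller and their versions, and the depth per sample is unknown, so no precision follows from it. Each list holds 30000 regions except the optimal one with 700.

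Summits were placed on WBcel235 with Ensembl release 115. Of 2811 genes without a name, 2758 were given a RefSeq symbol. A replicate summit within 100 bp counted as shared. Sequence windows had 101 bp; presence of 6-mers and shares by chromosome went into Fisher's exact tests (two-sided), Benjamini-Hochberg adjusted over 2080 6-mers and 12 chromosome comparisons at 0.05. No sequence of chromosome I is printed. Shares have exact (Clopper-Pearson) 95% intervals, and intervals and p-values cover counting error over regions only. Repeated sequence was counted as 36-base stretches found more than once in the genome. The 6-mer scans were tested on simulated data. Python 3.11.15, numpy 2.4.6, pandas 2.3.3, scipy 1.17.1 and matplotlib 3.10.9 were used.

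The members and gene lists were chosen with earlier results of these data known. The text names the genes at the 30 strongest members, except 1 that is not reported here, 5 regions to each side of the rank limit, the 4 genes of each list with the strongest member, a fixed panel of 10 6-mers and the 5 6-mers of lowest p in each direction; other genes were named after their values were seen. The chemoreceptor pattern was narrowed to receptor families after it was found to match other genes, and 1 intestinal symbol was not found. Alternatives were transcript 5' ends, other windows, limits and distances, each replicate's own list, and GC bins of 5 bases.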

Additional observations from a re-analysis of the deposited data

How the results depend on the processing

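The rule gave 836 regions, 971 with transcript 5' ends, 917 when small RNA genes and mitochondria were left out before ranking, 751 with 500 bp upstream, 441 with the strongest 1500, and 761 to 857 when applied to a single replicate's list, which found 430 to 484 of the members. The share in both replicates was 51.8% with summits within 50 bp, 91.5% within 200 bp and 93.4% among optimal members. The share 1 to 300 bp upstream was 43.9% with transcript ends and 40.1% to 43.2% on single replicates. Against both-strand regions, 7 6-mers were called with windows of 100 bp to each side, 9 with transcript ends and 3 to 5 on single replicates. Against weaker regions, 120 were called within GC bins, 55 within GC bins split by position, and 239 to 426 on single replicates, and ACGCGC with CGCGCA and GCGCAA had the lowest p in both binned tests.

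The X share against both-strand regions passed in all alternatives run, and that against weaker regions had odds ratios of 0.986 to 1.27 on single replicates. Odds ratios changed side of 1 against both-strand regions, none past the threshold, for TAATTA (0.926 within GC and position bins), CACGTG (1.07 there, 1.2 in longer windows, 0.351 to 1.04 on single replicates), GAGAGA (1.04 within GC bins, 1.05 with position, 1.08 for the strongest 1500, 1.04 with transcript ends, 0.808 to 1.13 on single replicates), CCCGCC (0.998 in longer windows, 0.872 to 1.01) and AAAAAA (1.02 with transcript ends, 0.954 to 1.03); on single replicates also for TTATCA (0.622 to 1.03), TGACGT (0.701 to 1.25) and TTTCAG (0.811 to 1.11). Against weaker regions this held within GC bins and with position for TAATTA (1.31, 1.32), GAGAGA (0.976, 0.862), TATAAA (1.05, 1.04), AAAAAA (1.08, 1.08), AAAAAT (1.03, 1.03) and AAAATT (1.00, 1.01), and on single replicates for TAATTA (0.874 to 1.06) and CACGTG (0.795 to 1.48). Apart from the GC bins, the cause was not tested. No paired analysis was possible because there was a single group. The odds ratio of GCTACA against both-strand regions has no finite value and was not followed. Depth is unknown and sets no limit here.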

Other observations

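Member windows read on the strand of the gene had more T than A in 59.7% of cases, against 54.8% of both-strand and 57.7% of weaker one-direction windows. A noncoding gene's 5' end on the other strand had the summit in its window at 99 members (11.8%), against 7.49% of both-strand and 7.82% of weaker regions, so that some one-direction promoters are so only for protein-coding genes. Any repeated 36-base stretch was present in 36 member windows (4.31%), 1.29% of both-strand and 5.52% of weaker windows. More than 50% of the stretches were repeated at 9 members, at unc-85, Y32B12B.4, C09E7.7, mec-6, pot-3, elpc-4, F13H8.2 and both vps-39 regions.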
